A study of Rattus norvegicus with 44 samples.

Results

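The choroid plexus of rats killed 3 h after a hyperthermic exposure was set against that of saline-treated rats at the same time. The arrays were chosen by tissue, treatment and time in the labels, which gave 8 of the 44 arrays of the series: 4 pools after environmentally-induced hyperthermia (EIH) and 4 saline pools. Each pool held choroid plexus from 3 male Sprague-Dawley rats (NCTR strain), 3 months old. The series also holds choroid plexus after neurotoxic doses of amphetamine (AMPH), choroid plexus at 1 day, and trunk blood of single rats after each exposure. Its stated aims include the damage and protective responses of the choroid plexus to each exposure. The labels do not give the temperature reached or the length of the exposure.

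The choroid plexus is a folded epithelium around a leaky vascular core in the brain ventricles. It secretes cerebrospinal fluid and closes the barrier between blood and that fluid with tight junctions. Heat and unfolded protein activate the heat shock factor Hsf1, which drives genes of chaperones: Hsp70 and Hsp110 proteins, Hsp90 and its cochaperones, Hsp40 partners, small heat shock proteins and the mitochondrial chaperonin. Unfolded protein in the endoplasmic reticulum (ER) activates a separate set of genes, and injury or cytokines activate immediate early factors and chemokines.

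Values are log2 of the deposited intensity of single-colour arrays, and a difference is a limma estimate ± standard error with its Benjamini-Hochberg adjusted p (adjusted p below). A gene was called at an adjusted p under 0.05. Median intensity lay between 142.1 and 142.8 over the 8 arrays, and 1.68% to 6.37% of values were blank. Each array had an upper end between 15.97 and 16, shared by 22 to 33 genes, so a gene there cannot show its full level. Saline replicate 4 stood apart: 588 of its genes lay over 4-fold from the median of the 12 choroid plexus arrays of 3 h, against 34 to 139 on the other arrays compared here. It was the lowest saline array for 58.5% of all 9211 genes with 8 values, and EIH replicate 3 was the lowest EIH array for 31.5%. The p-values within choroid plexus measure the spread between pools. Those within blood measure the spread between single rats, and the comparison of the tissues mixes both. Since the tissue is a mixture, fewer cells of a type and less RNA per cell cannot be told apart in any value.

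The defining genes of the labelled tissue were at high levels. Ttr, which encodes transthyretin, lay at each array's upper end (15.97 to 16 on all 8 arrays). Folr1, the folate receptor gene of the epithelium, read 14.03 to 14.39, the potassium channel gene Kcnj13 14.81 to 15.24, and Kl, which encodes klotho, 11.37 to 11.91. Blood cell markers were low: the summed intensity of 13 erythroid genes was 4343 to 4985 in the saline pools and 4531 to 5438 in the EIH pools, against 335393 to 368092 in blood of saline rats.

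Of 10261 genes tested, 34 (0.331%) rose after EIH and 1 (0.00975%) fell. Chaperones made up 10 of the 34, and heme oxygenase, immediate early factors and genes of collagen folding held several of the other places. The count of calls turned on single arrays. It was 0 without any 1 of EIH replicates 1, 2 and 4 or saline replicates 1, 3 and 4 (lowest adjusted p 0.0512 to 0.0964), 18 without saline replicate 2 and 89 without EIH replicate 3. Some rat numbers in the titles recur. Saline replicate 4 shares 1 with AMPH 1 day replicate 2, and EIH replicate 2 shares 1 with EIH 1 day replicate 4. A rat killed at 3 h cannot also give tissue at 1 day, so these labels conflict. Which group such a rat belongs to is not known. EIH 1 day replicate 3 shares numbers with EIH 1 day replicates 2 and 4, so the pooled spread holds pools that are not independent. Leaving out the pools that share a number with another pool (EIH replicate 2 and saline replicate 4 among those compared) gave 0 calls, as did leaving out saline replicate 3 as well, which shares a number with a blood sample of 1 day. Leaving out AMPH 1 day replicate 2, which only adds to the pooled spread, gave 171. All 35 genes kept their direction with an unadjusted p under 0.05 in 21 of the 22 other settings tried. In the setting whose filter on low means removed 1 of them, 34 did. The genes were picked by their p from mostly the same arrays, so this could hardly come out otherwise and does not test the calls.

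**Figure D1:**
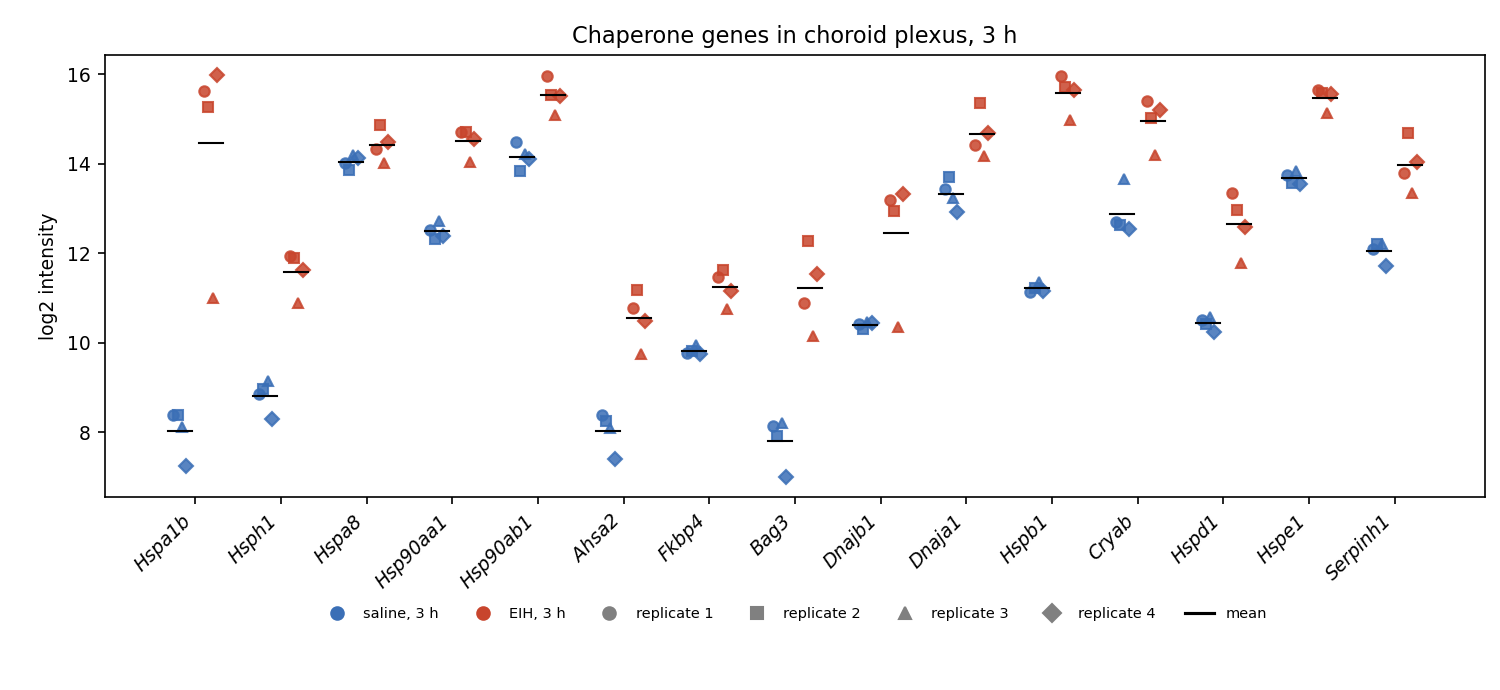
Log2 intensity (vertical axis) of 15 chaperone genes on the 4 saline and 4 EIH choroid plexus arrays of 3 h, with the symbol giving the replicate and the bar the group mean. Hspb1 moves from 11.14 to 11.37 up to 14.97 to 15.97. EIH replicate 3 (triangle) is the lowest EIH array for each gene drawn, and for Dnajb1 it lies among the saline arrays.

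Within the Hsp70 and Hsp110 list, 2 of 11 genes rose, and the list median was 0.38 against 0.01 for all genes. Hspa1b encodes the stress-inducible Hsp70. It read 8.40, 8.40, 8.12 and 7.25 in the saline pools and 15.63, 15.27, 11.01 and 15.98 in the EIH pools. All EIH pools were above all saline pools, with replicate 3 far below the other EIH pools. Replicate 4 had reached its array's ceiling. The difference was 6.43 ± 1.09 (adjusted p = 0.0214), and a dimmer second probe gave 1.85, so no fold is given. Hsph1, the Hsp110 gene whose product recharges Hsp70 with nucleotide, read 8.86, 8.96, 9.14 and 8.31 in saline and 11.94, 11.90, 10.89 and 11.64 after EIH. It rose by 2.78 ± 0.51, or 6.85-fold (95% interval 3.24 to 14.5; adjusted p = 0.0249), and the groups did not overlap.

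Members expressed without stress had smaller differences. Hspa8, the housekeeping Hsp70 gene, read 14.02, 13.86, 14.19 and 14.14 in saline and 14.33, 14.88, 14.03 and 14.49 after EIH. These ranges overlapped, and the difference of 0.38 ± 0.21 was not called (adjusted p = 0.477). Hspa4l (1.09 ± 0.44, adjusted p = 0.297) and Hspa14 (0.43 ± 0.11, adjusted p = 0.126) had no overlap between groups and did not pass.

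Hsp90 genes and their cochaperones formed the list with the most calls for its size, 5 of 12, with a median of 1.14. In 9 of the 12 every EIH array was above every saline array, against 8.65% of the 9211 genes with 8 values. Hsp90aa1, the inducible cytosolic Hsp90 gene, read 12.53, 12.32, 12.73 and 12.38 in saline and 14.72, 14.72, 14.05 and 14.56 after EIH. It rose by 2.02 ± 0.36 (4.07-fold, 95% interval 2.42 to 6.85; adjusted p = 0.0214). Its constitutive paralogue Hsp90ab1 rose by 1.37 ± 0.22 (adjusted p = 0.0214), with EIH replicate 1 at the upper end of the scale (15.97), and a second probe gave 1.36. The cochaperone genes rose with them: Ahsa2, of the family that activates the Hsp90 ATPase, by 2.53 ± 0.42, the immunophilin gene Fkbp4 by 1.43 ± 0.26, and St13, which encodes the Hsp70-interacting protein Hip, by 0.91 ± 0.16. Fkbp4 and St13 each had further probes between 0.98 and 1.88. Chordc1 (1.62 ± 0.35, adjusted p = 0.0605) and Stip1, the Hsp70-to-Hsp90 adaptor (1.41 ± 0.33, adjusted p = 0.0761), had no overlap between groups and did not pass.

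None of the 18 genes for Hsp40 partners and nucleotide exchange factors was called, though 5 had an unadjusted p under 0.05 on the higher side (7.78% of all genes tested did). Bag3, the Hsp70 cochaperone of selective autophagy, read 8.14, 7.91, 8.20 and 7.01 in saline and 10.89, 12.28, 10.15 and 11.55 after EIH. The groups were well apart, and the difference of 3.40 ± 0.71 had an adjusted p of 0.0510. Dnajb1, the main stress-inducible Hsp40 gene, read 10.42, 10.30, 10.46 and 10.45 in saline and 13.20, 12.95, 10.36 and 13.32 after EIH. EIH replicate 3 lay within the saline range while the other 3 EIH pools lay far above it, and the difference of 2.05 ± 0.58 was not called (adjusted p = 0.139; a second probe gave 1.94). Dnaja1 (1.33 ± 0.29, adjusted p = 0.0645) and Dnajb4 (1.08 ± 0.25, adjusted p = 0.0715) had EIH arrays all above saline.

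Among 8 small heat shock protein genes Hspb1 alone was called, and 5 were on the higher side (median 0.45). An unadjusted p under 0.05 was found for 3 on the higher side and 1 on the lower (7.78% and 5.16% of all genes). In 3 genes all EIH arrays were above saline (37.5%, against 8.65% of all genes). In 1 gene all were below (12.5%, against 7.83%), and the lowest difference was -1.17. Hspb1, whose product binds unfolding proteins and actin, read 11.14, 11.22, 11.37 and 11.16 in saline and 15.97, 15.71, 14.97 and 15.65 after EIH. The saline pools were tight and all EIH pools at least 3 log2 units above them, with replicate 1 at the upper end of the scale. The difference was 4.35 ± 0.72 (adjusted p = 0.0214). Cryab, which encodes αB-crystallin, read 12.54 to 13.67 in saline and 14.20 to 15.40 after EIH, a difference of 2.07 ± 0.44 (adjusted p = 0.0526). Its saline replicate 3 (13.67) stood above the other saline pools (12.54 to 12.71) and below the lowest EIH pool. Hspb8 stood at 1.09 ± 0.33 (adjusted p = 0.170).

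Both parts of the mitochondrial chaperonin rose. Hspd1, the Hsp60 barrel, read 10.52, 10.42, 10.57 and 10.24 in saline and 13.34, 12.96, 11.78 and 12.58 after EIH (2.23 ± 0.43, 4.68-fold, 95% interval 2.48 to 8.84; adjusted p = 0.0372). Hspe1, its Hsp10 lid, read 13.56 to 13.83 in saline and 15.14 to 15.65 after EIH (1.80 ± 0.33, adjusted p = 0.0263). The other 6 mitochondrial chaperones were not called, and Trap1, the mitochondrial Hsp90 gene, was lower on every EIH array (-0.50 ± 0.17, adjusted p = 0.206). The cytosolic chaperonin CCT had no call among 11 subunit genes and a median of 0.34. Its subunit gene Cct3 read 14.28 to 14.47 in saline and 14.73 to 14.86 after EIH (0.44 ± 0.12, adjusted p = 0.129). Over all 6 chaperone lists, 10 of 68 genes rose and 0 fell, and in 26 the EIH arrays were all above saline (38.2%, against 8.65% of all genes). Hsf1 itself read 9.81 to 10.09 in saline and 10.21 to 10.33 after EIH (0.36 ± 0.11, adjusted p = 0.181).

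Chaperones of collagen rose as well. Serpinh1 encodes Hsp47, the ER chaperone of procollagen, and rose by 1.91 ± 0.34 (3.76-fold, 95% interval 2.28 to 6.20; adjusted p = 0.0218), from 11.72 to 12.21 in saline to 13.36 to 14.68 after EIH. P4ha1, the catalytic subunit gene of collagen prolyl hydroxylase, rose by 1.87 ± 0.33 (adjusted p = 0.0214), from 8.31 to 8.93 up to 10.27 to 10.83. In protein clearance, none of 16 genes for ubiquitin and aggregate handling was called. The lowest adjusted p there was that of Ubqln1, a shuttle to the proteasome (0.87 ± 0.20, adjusted p = 0.0715), and Zfand2a, a heat-inducible proteasome adaptor gene, stood at 0.98 ± 0.32 (adjusted p = 0.194). The 40 proteasome subunit genes had a median of -0.11, with 10 lower on every EIH array (25%, against 7.83% of all genes). Psma7 was among these, at 12.79 to 12.91 in saline and 12.32 to 12.56 after EIH (-0.39 ± 0.14, adjusted p = 0.236).

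Promoter windows of RefSeq genes (assembly GRCr8, 250 bases before to 50 after a gene's start) were searched for the heat shock element on both strands, which is built of GAA and its reverse complement TTC in turn with 2 free bases between them. The 2-unit form was GAANNTTC, and the 3-unit form was that run followed by NNGAA, so every 3-unit match also holds a 2-unit match. Of the 34 genes that rose, 27 had a window, and 5 of these (18.5%) held the 3-unit form: Hsph1, Serpinh1, Hspd1, Hspe1 and Bst2. Of all 8400 tested genes with a window, 45 did (0.536%), as did 0.798% of the 33469 windows in the table. The 2-unit form was in 7 of the 27 (25.9%), which adds Hspb1 and Fkbp4, and in 6.25% of tested genes. The stretches before the start that hold the matches are shown here for 4 genes that rose and for Hspa8, Dnajb1 and Bag3, with the match in capitals, since they show that genes with and without a call share the element. Hspd1 and Hspe1 lie head to head and share the stretch printed for Hspe1.
Hsph1: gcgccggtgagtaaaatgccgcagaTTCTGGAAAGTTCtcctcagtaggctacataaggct
Serpinh1: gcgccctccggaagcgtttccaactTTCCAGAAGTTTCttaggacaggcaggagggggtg
Hspe1: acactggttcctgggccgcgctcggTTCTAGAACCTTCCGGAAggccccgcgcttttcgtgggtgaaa
Hspb1: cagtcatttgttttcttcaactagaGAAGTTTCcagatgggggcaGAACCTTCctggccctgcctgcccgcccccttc
Hspa8: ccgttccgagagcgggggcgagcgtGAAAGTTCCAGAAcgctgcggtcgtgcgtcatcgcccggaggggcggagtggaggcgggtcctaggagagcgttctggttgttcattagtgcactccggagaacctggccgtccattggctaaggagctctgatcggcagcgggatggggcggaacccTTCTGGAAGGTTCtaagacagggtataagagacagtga
Dnajb1: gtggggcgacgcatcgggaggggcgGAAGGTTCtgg
Bag3: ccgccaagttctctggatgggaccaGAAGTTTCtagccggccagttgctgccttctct
These lie at chr12:10427307-10427367 (plus strand) for Hsph1, chr1:163062977-163063036 (minus) for Serpinh1, chr9:64084237-64084304 (plus) for Hspe1, chr12:26432378-26432455 (minus) for Hspb1, chr8:50080276-50080496 (plus) for Hspa8, chr19:41431142-41431177 (minus) for Dnajb1 and chr1:192533303-192533360 (plus) for Bag3. Hspe1 has 2 overlapping 3-unit matches, so that 4 units follow each other. Hspa8 has 2 separate 3-unit matches and was not called (0.38 ± 0.21), while Hspb1, which was called, has 2 matches to the 2-unit form alone. Dnaja1, Chordc1 and Cct4, none of them called, held the 3-unit form as well.

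Most ER stress genes had higher values after EIH, and 1 was called. Of 30 members, 27 were on the higher side (5294 of all 10261 genes were), and 16 had an unadjusted p under 0.05 there (7.78% of all genes). In 19 all EIH arrays were above saline (63.3%, against 8.65% of all genes). The list median was 0.70. Pdia4, an ER disulfide isomerase gene, read 8.63, 9.13, 8.49 and 8.15 in saline and 10.80, 10.82, 10.54 and 10.96 after EIH. The EIH pools were within 0.5 log2 units of each other, replicate 3 included, and the rise was 2.18 ± 0.43 (4.54-fold, 95% interval 2.43 to 8.49; adjusted p = 0.0372). Hyou1, the ER Hsp110 gene, read 11.74 to 12.14 in saline and 13.35 to 13.79 after EIH (1.57 ± 0.37, adjusted p = 0.0763). Manf, a secreted ER stress factor gene, stood at 1.57 ± 0.40 (adjusted p = 0.108) and Creld2 at 1.43 ± 0.40 (adjusted p = 0.138).

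Hsp90b1, the ER Hsp90 gene, read 13.37, 13.52, 13.62 and 13.64 in saline and 14.76, 14.80, 14.81 and 14.81 after EIH. The groups were tight and well apart, yet the error pooled over all 20 choroid plexus arrays was 0.85 and the difference of 1.26 was not called (adjusted p = 0.570; a second probe gave 1.41). Hspa5, the ER Hsp70 gene known as BiP, read 9.16, 14.64, 14.92 and 14.57 in saline and 8.93, 15.98, 15.52 and 15.98 after EIH. Replicate 1 of each group lay far below its other 3 pools, and replicates 2 and 4 after EIH had reached the array's ceiling. The difference of 0.78 ± 1.38 (adjusted p = 0.871) describes none of the pools. No other member was called. Trib3, a pseudokinase gene, stood at 1.43 ± 0.31 (adjusted p = 0.0605), Ppp1r15a, which encodes Gadd34, at 1.12 ± 0.25 (adjusted p = 0.0645), Ddit3, which encodes Chop, at 1.22 ± 0.29 (adjusted p = 0.0763) and Dnajb9, an ER Hsp40 gene, at 1.06 ± 0.25 (adjusted p = 0.0715). EIH arrays were all above saline for each of these 4 genes. A dimmer Dnajb9 probe gave 1.25 ± 0.25, with an adjusted p of 0.0366 in a limma fit of single probes. Whether Dnajb9 passes thus depends on the probe.

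The ER stress element, read as CCAAT, 9 free bases and CCACG on either strand, was in the windows of 6 of the 24 ER stress genes that had one (25%): Hspa5, Hsp90b1, Creld2, Dnajc3, Calr and Canx. In all, 13 of the 8400 tested genes held it (0.155%). None of the 27 called genes with a window did. The stretches of the first 3 are printed, with the match in capitals, for comparison with the heat shock promoters above.
Hspa5: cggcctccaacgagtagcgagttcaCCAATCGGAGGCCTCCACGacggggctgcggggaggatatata
Hsp90b1: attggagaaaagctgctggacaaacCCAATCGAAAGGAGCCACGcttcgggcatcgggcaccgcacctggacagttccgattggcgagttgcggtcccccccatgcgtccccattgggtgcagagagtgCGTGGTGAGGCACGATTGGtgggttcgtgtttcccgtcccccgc
Creld2: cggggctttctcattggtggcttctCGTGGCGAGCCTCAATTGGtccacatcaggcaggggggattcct
They lie at chr3:38452948-38453015 (plus strand), chr7:23012322-23012494 (minus) and chr7:121789214-121789282 (plus). Of the other 3, Dnajc3 stood at 0.61 ± 0.21 (adjusted p = 0.220), the lectin chaperone gene Calr at 0.76 ± 0.36 (adjusted p = 0.378) and Canx at 0.22 ± 0.19 (adjusted p = 0.660).

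**Figure D2:**
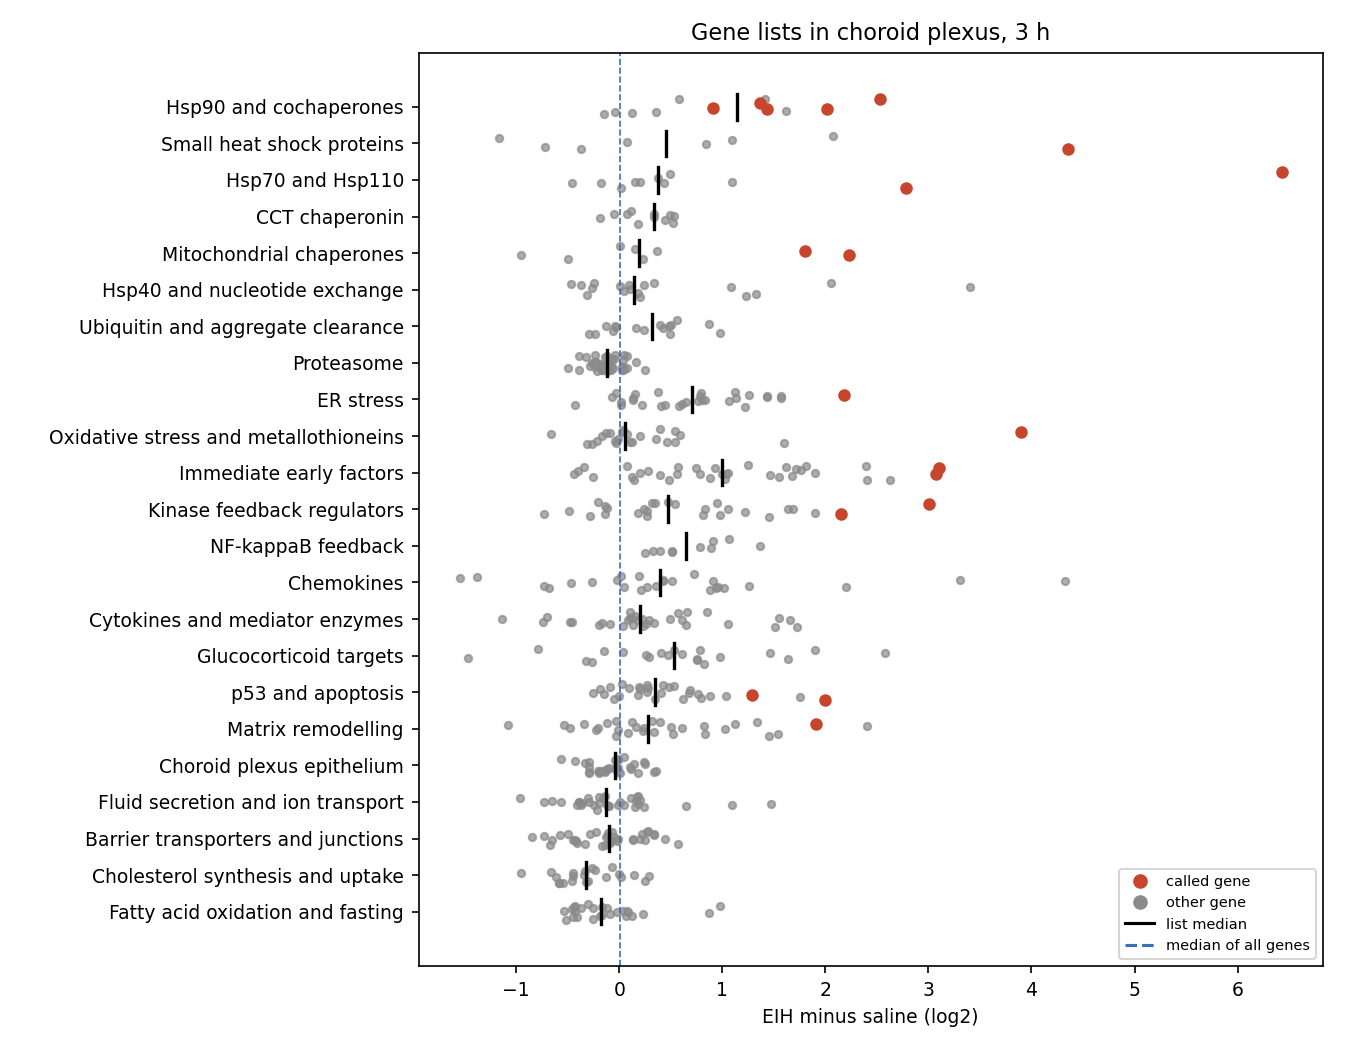
EIH minus saline difference on the log2 scale (horizontal axis) for every tested gene of 23 lists, with called genes in red, list medians as black bars and the median of all genes as a dashed line at 0.01. Medians run from 1.14 for Hsp90 and cochaperones to -0.32 for cholesterol synthesis.

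In the oxidative stress and metallothionein list 1 of 24 genes was called and the median was 0.06. Hmox1, the inducible heme oxygenase gene, read 7.64, 7.69, 7.43 and 7.15 in saline and 11.21, 12.18, 10.53 and 11.61 after EIH. It rose by 3.90 ± 0.61 (15.0-fold, 95% interval 6.12 to 36.5; adjusted p = 0.0214) with a gap of over 2 log2 units between the groups. Mt1, a metallothionein gene induced by metals and glucocorticoids, read 10.18 to 10.64 in saline and 12.40, 13.51, 10.89 and 11.33 after EIH, where replicates 1 and 2 stood above replicates 3 and 4. Its difference of 1.6 ± 0.48 was not called (adjusted p = 0.156). Ftl1, the ferritin light chain gene, stood at 0.54 ± 0.21 (adjusted p = 0.291) and Nfe2l2, which encodes Nrf2, at 0.36 ± 0.12 (adjusted p = 0.220).

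Of 35 immediate early genes 2 were called, and the median was 1.00. An unadjusted p under 0.05 was found for 19 on the higher side and 0 on the lower (7.78% and 5.16% of all genes). Atf3, a stress-induced repressor of the CREB family, read 7.11, 7.02, 7.13 and 6.50 in saline and 9.60, 11.30, 8.92 and 10.21 after EIH, a rise of 3.07 ± 0.53 (8.38-fold, 95% interval 3.86 to 18.2; adjusted p = 0.0214). Cebpd, a factor of acute phase genes, read 9.06 to 9.54 in saline and 12.78, 13.22, 11.12 and 12.48 after EIH (3.10 ± 0.62, adjusted p = 0.0376). Its relative Cebpb stood at 1.76 ± 0.41 (adjusted p = 0.0748) and the orphan receptor gene Nr4a3 at 2.39 ± 0.58 (adjusted p = 0.0887). Fos read 6.05, 5.61, 5.92 and 4.22 in saline and 8.42, 8.52, 6.46 and 7.99 after EIH (2.40 ± 0.72, adjusted p = 0.165), and Jun 8.68 to 10.85 after EIH against 7.98 to 8.43 (1.71 ± 0.43, adjusted p = 0.0978). EIH replicate 2 was the highest EIH array for 26 of the 35 genes (74.3%) and replicate 3 the lowest for 27 (77.1%), against 24.1% and 31.5% of all genes. The cyclic AMP element TGACGTCA was in 3 of the 24 immediate early genes with a window (12.5%, against 2.74% of tested genes) and the AP-1 site TGAGTCA in none (4.27% of tested genes), on either strand.

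Feedback regulators of signalling had 2 calls. Rgs1, which speeds the turn-off of G protein signals, read 5.34, 6.12, 3.84 and 5.38 in saline and 8.54, 9.09, 7.18 and 7.91 after EIH (3.01 ± 0.59, adjusted p = 0.0372). Rnd1 rose by 2.15 ± 0.41 (adjusted p = 0.0336). These were the 2 calls among 27 genes of the list, while 0.331% of all genes were called higher. An unadjusted p under 0.05 was found for 12 of the 27 on the higher side and 0 on the lower (7.78% and 5.16% of all genes). The phosphatase gene Dusp1 read 6.24 to 7.49 in saline and 7.61 to 9.49 after EIH (1.90 ± 0.47, adjusted p = 0.0978). In the p53 and apoptosis list, 2 of 29 genes rose: Tnfrsf12a, the receptor of the cytokine TWEAK, from 8.60 to 8.99 up to 10.17 to 11.42 (2.0 ± 0.39, adjusted p = 0.0372) and Phlda1 (1.29 ± 0.26, adjusted p = 0.0376). The survival gene Mcl1 stood at 0.76 ± 0.17 (adjusted p = 0.0688). In this list of 29, 10 genes had an unadjusted p under 0.05 on the higher side and 0 on the lower.

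**Figure D3:**
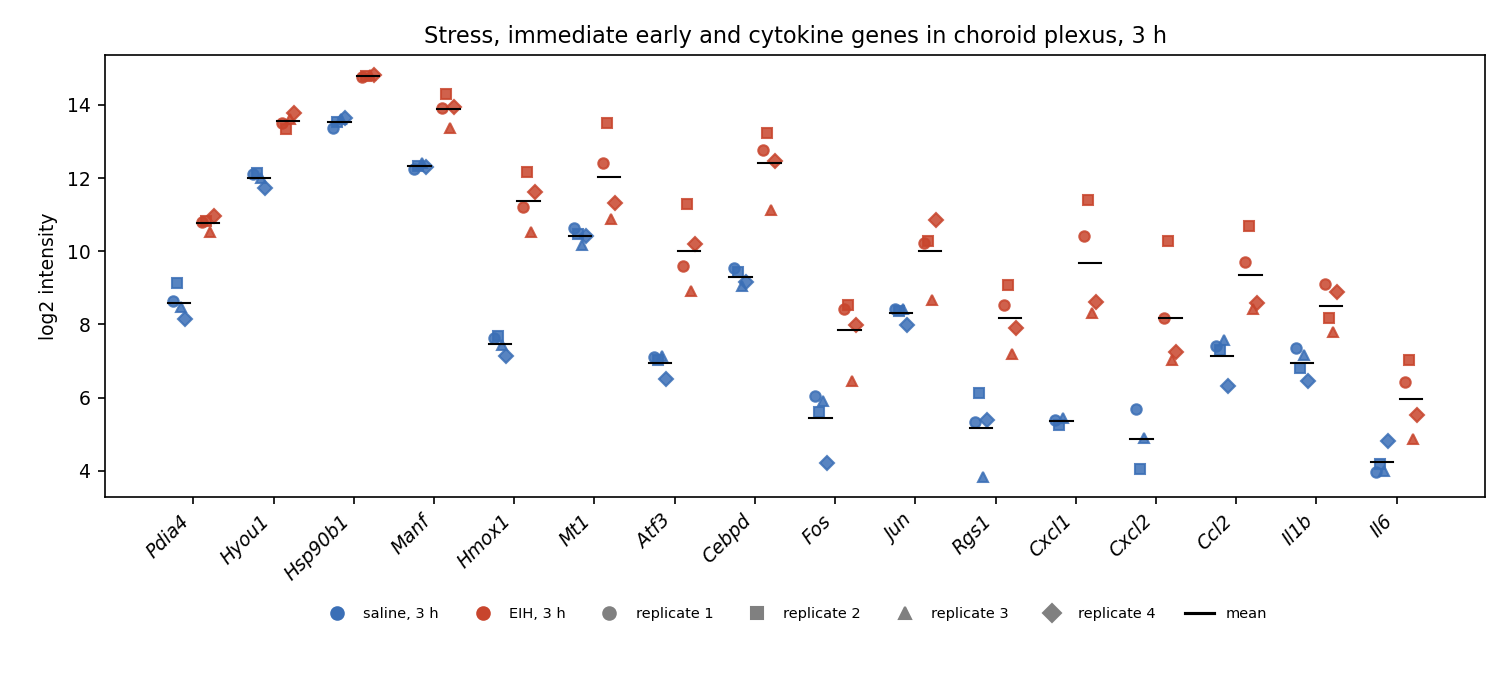
Log2 intensity (vertical axis) of 16 ER stress, oxidative stress, immediate early and cytokine genes on the 4 saline and 4 EIH choroid plexus arrays of 3 h, with the symbol giving the replicate and the bar the group mean. Pdia4, Hyou1 and Hsp90b1 are alike on all EIH arrays, while Atf3, Cxcl1, Cxcl2 and Ccl2 are highest in EIH replicate 2 (square). Cxcl1 and Cxcl2 have 3 saline points, since saline replicate 4 is blank.

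No chemokine or cytokine gene was called. Cxcl1, which recruits neutrophils, read 5.39, 5.25 and 5.44 in saline, where replicate 4 was blank, and 10.43, 11.40, 8.31 and 8.62 after EIH. The EIH pools were all far above saline but spread over 3 log2 units, and the difference of 4.33 ± 0.91 had an adjusted p of 0.0556 (n = 3 and 4). Cxcl2 stood at 3.31 ± 0.82 (adjusted p = 0.104; n = 3 and 4) and Ccl2, which recruits monocytes, at 2.20 ± 0.64 (adjusted p = 0.149), with all EIH arrays above saline. Il1b read 6.45 to 7.37 in saline and 7.79 to 9.11 after EIH (1.55 ± 0.44, adjusted p = 0.143) and Il6 3.98 to 4.82 against 4.88 to 7.04 (1.72 ± 0.53, adjusted p = 0.173). Il1rn, the interleukin 1 receptor antagonist gene, stood at 1.51 ± 0.38 (adjusted p = 0.108), but a dimmer probe gave -1.86. Of 26 chemokine genes, 5 had an unadjusted p under 0.05 on the higher side and 2 on the lower (7.78% and 5.16% of all genes).

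Ccl5, a chemokine of lymphocytes, was on the lower side: 7.81, 7.70, 7.44 and 9.91 in saline against 6.64, 6.64, 7.17 and 6.21 after EIH (-1.55 ± 0.49, adjusted p = 0.191), with saline replicate 4 the highest. That pool also carried the highest level of the NK receptor gene Klrd1, 11.14 against 3.60 to 5.92 on the other 7 arrays. All 10 genes of NF-kappaB feedback were higher after EIH, against 5294 of all 10261 genes (median 0.64). An unadjusted p under 0.05 was found for 7 (7.78% of all genes on that side). Nfkbia, the inhibitor gene, stood at 0.91 ± 0.25 (adjusted p = 0.138) and Birc3 at 1.06 ± 0.29 (adjusted p = 0.126). Of 17 endothelial adhesion genes, 0 were called and 9 were on the higher side, with a median of 0.13 and a lowest difference of -0.72. All EIH arrays were above saline in 2 of them (11.8%, against 8.65% of all genes). In this list Icam1 read 8.83 to 8.94 in saline and 9.36 to 10.82 after EIH (1.13 ± 0.26, adjusted p = 0.0688), and Sele stood at 1.37 ± 0.40 (adjusted p = 0.156). Arid5a, which stabilises cytokine messenger RNA, rose by 1.16 ± 0.20 (adjusted p = 0.0214), as did Litaf by 1.26 ± 0.25 and Cd14, a receptor for bacterial lipopolysaccharide, by 1.10 ± 0.22 (adjusted p = 0.0376 each). Bst2, an interferon-inducible gene, rose by 1.64 ± 0.31 (adjusted p = 0.0317). Its saline replicate 4 read 9.20 and the other saline pools 10.69 to 11.02, and it was the only call among 28 interferon genes (median 0.07).

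Markers of the cells that could bring such transcripts were compared as summed intensities. The neutrophil list (18 of 19 measured genes tested, 0 called) summed to 837 to 1273 in saline and 1152 to 1400 after EIH, against 31566 to 45093 in blood of saline rats. Of its 15 genes with 8 values, 2 had all EIH arrays above saline (13.3%, against 8.65% of all genes). None had all below (0%, against 7.83%). Il1r2, a member of this list whose values are given below, was among the 2. The list median was 0.12. Its calprotectin genes S100a8 (3.46 to 7.31 in saline, 6.01 to 6.89 after EIH) and S100a9 (3.75 to 7.71 and 6.05 to 7.38) overlapped between groups. The myeloperoxidase gene Mpo was near the bottom of the scale, at 2.80 to 5.22 with 1 blank. The macrophage and monocyte list summed to 19731 to 20602 in saline and 16519 to 21877 after EIH, with Cd14 as its 1 call in 27. The NK list summed to 924 to 4072 in saline, the upper end being replicate 4, and 776 to 995 after EIH. Endothelial markers summed to 11239 to 13893 and 10932 to 16173. The part of these cells in the differences above was not tested.

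Glucocorticoid targets had no call among 21 and a median of 0.53. Il1r2, the decoy interleukin 1 receptor gene, read 5.72, 5.01, 4.76 and 3.00 in saline and 7.13, 7.99, 6.20 and 7.47 after EIH (2.58 ± 0.68, adjusted p = 0.118). Fkbp5 stood at 0.82 ± 0.41 (adjusted p = 0.406), with further probes at 0.16 and 0.66, and Pdk4 at 0.98 ± 0.51 (adjusted p = 0.433). Saline replicate 4 was the lowest array for Il1r2, Fkbp5 and Pdk4.

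The remaining called genes, which were named after their values were seen, were of mixed function. Flrt2, an adhesion molecule gene, rose by 1.56 ± 0.24 and the zinc finger gene Plagl1 by 1.56 ± 0.25, each with an adjusted p of 0.0214. Phospholipase genes Pla1a (1.10 ± 0.18, adjusted p = 0.0214) and Pla2g1b (1.53 ± 0.32, adjusted p = 0.0472) rose, as did the histone methyltransferase gene Suv39h1 (1.70 ± 0.35, adjusted p = 0.0433), whose values of 3.27 to 5.90 were low. Rises under 1 log2 unit were called for Azi2 (0.91), Rbm15b (0.97), Polg2 (0.80), Bicd2 (0.77) and Trip10 (0.68). Among all 34 genes that rose, EIH replicate 3 was the lowest EIH array for 30 (88.2%, against 31.5% of all genes) and saline replicate 4 the lowest saline array for 27 (79.4%, against 58.5%).

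Slc35b2 was the single gene that fell. It encodes the Golgi transporter of the sulphate donor PAPS and read 11.54, 11.57, 11.43 and 11.41 in saline and 10.77, 10.36, 11.09 and 10.65 after EIH. The level fell to 0.586 of saline (95% interval 0.476 to 0.721; -0.77 ± 0.14, adjusted p = 0.0249), and EIH replicate 3 was again the nearest to saline. Cirbp and Rbm3 encode RNA-binding proteins that are induced by cold. Cirbp read 8.18 to 8.71 in saline and 7.27 to 7.66 after EIH (-0.97 ± 0.34, adjusted p = 0.224), and Rbm3 9.17 to 9.46 against 8.49 to 8.81 (-0.63 ± 0.27, adjusted p = 0.342). Neither was called, and for each all EIH arrays were below all saline arrays.

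Cholesterol synthesis and uptake had the lowest median of the metabolic lists, -0.32. Of 22 genes, 0 were called, 5 had an unadjusted p under 0.05 on the lower side (5.16% of all genes did) and 10 were lower on every EIH array (45.5%, against 7.83%). Sqle, the squalene epoxidase gene, read 11.02, 10.97, 10.95 and 10.89 in saline and 9.96, 9.86, 10.35 and 9.84 after EIH (-0.95 ± 0.34, adjusted p = 0.233). Acat2 stood at -0.59 ± 0.15 (adjusted p = 0.0978), with a second probe at -0.64. Insig1, the sterol sensor gene, stood at -0.66 ± 0.22 (adjusted p = 0.199), and Idi1 and Msmo1 at -0.59 ± 0.32 and -0.46 ± 0.21 (adjusted p = 0.460 and 0.383). In the list for fatty acid oxidation and fasting, 8 of 26 genes were lower on every EIH array (30.8%), with a median of -0.18 and 0 calls.

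**Figure D4:**
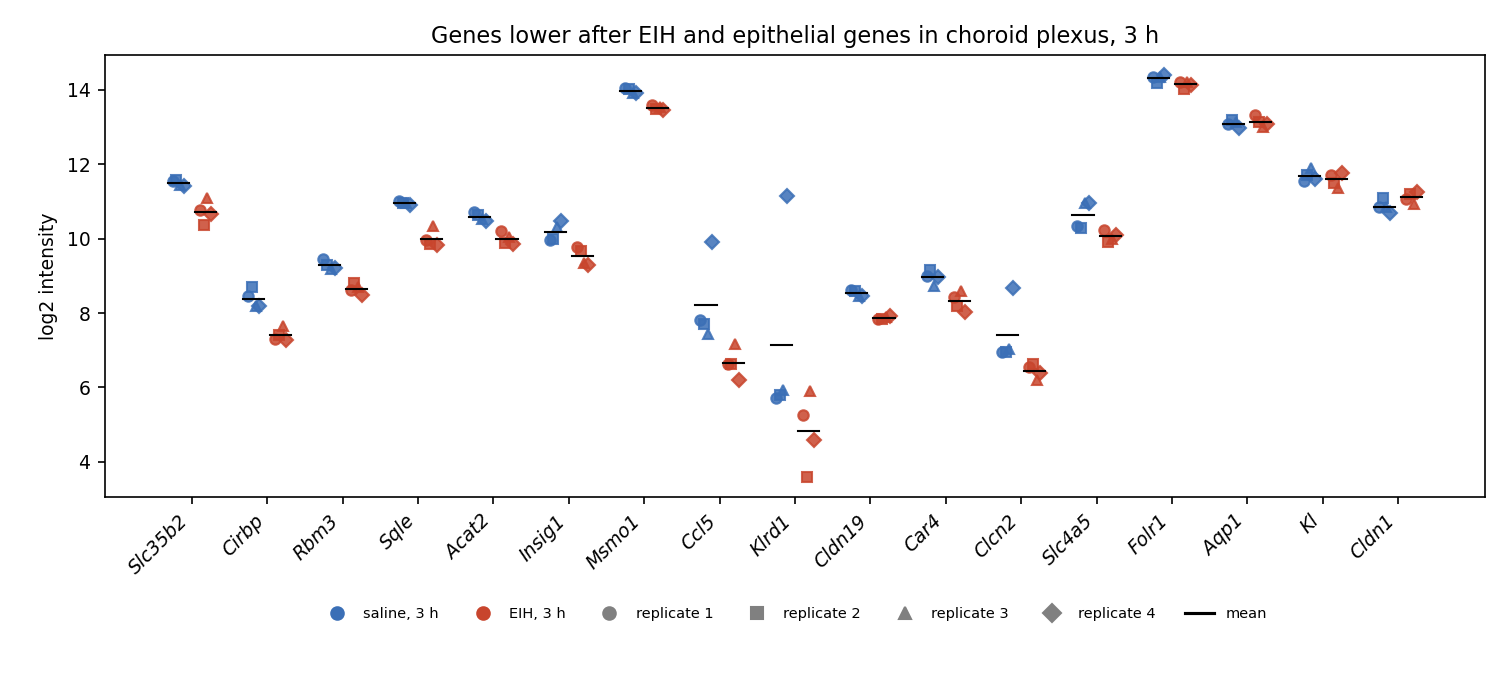
Log2 intensity (vertical axis) of Slc35b2, cold-inducible, cholesterol, lymphocyte and epithelial genes on the 4 saline and 4 EIH choroid plexus arrays of 3 h, with the symbol giving the replicate and the bar the group mean. Slc35b2, Cirbp, Rbm3 and Sqle have all EIH points below all saline points, while Folr1, Aqp1 and Kl overlap. Saline replicate 4 (diamond) is far above the other points for Klrd1, Ccl5 and Clcn2.

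The secretory epithelium had no call: 0 of 32 identity genes, 0 of 34 genes of fluid secretion and ion transport, and 0 of 36 barrier genes. Since 0.341% of all genes tested were called, this does not set the lists apart. Their medians were -0.04, -0.13 and -0.10. All EIH arrays were below saline for 12.5%, 18.8% and 17.1% of their genes with 8 values, against 7.83% of all genes. They were all above for 3.12%, 0% and 8.57%, against 8.65%. Ttr, Enpp2, Igf2 and Sostdc1 of the identity list lay at the upper end of every array. Aqp1, the apical water channel gene, read 12.96 to 13.18 in saline and 12.99 to 13.32 after EIH (0.05 ± 0.21). Kl stood at -0.10 ± 0.48 and Folr1 at -0.16 ± 0.53. The bicarbonate transporter gene Slc4a5 read 10.34, 10.28, 10.96 and 10.96 in saline and 9.92 to 10.23 after EIH, so the EIH pools were all lower, by 0.57 ± 0.58 (adjusted p = 0.728). For Slc12a2, the sodium-potassium-chloride transporter gene, the difference was -0.20 ± 0.26. Clcn2, a chloride channel gene, stood at -0.96 ± 0.29 (adjusted p = 0.165), with saline replicate 4 at 8.66 and the other saline pools at 6.94 to 7.04. Car4, a membrane carbonic anhydrase gene, read 8.72 to 9.15 in saline and 8.03 to 8.59 after EIH (-0.65 ± 0.24, adjusted p = 0.257).

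In the barrier list 11 of the 36 genes were on the higher side, against 5294 of all 10261 genes. Its tight junction gene Cldn19 read 8.46 to 8.62 in saline and 7.83 to 7.93 after EIH (-0.67 ± 0.28, adjusted p = 0.316), while Cldn1 stood at 0.25 ± 0.42. Both errors pool all choroid plexus groups and are wider than the spread within these 8 arrays. Ependymal and cilia genes, of cells that border the tissue, had a median of -0.35 and summed to 27650 to 30904 in saline and 22685 to 28268 after EIH. Tekt2, a gene of the ciliary axoneme, stood at -0.55 ± 0.21 (adjusted p = 0.267). Opalin, an oligodendrocyte gene, read 7.05 to 8.64 in saline and 5.23 to 6.90 after EIH (-1.55 ± 0.38, adjusted p = 0.0901).

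Set directly against EIH, the choroid plexus 3 h after AMPH differed in 1 of 10273 genes (0.00973%). Before adjustment, 158 genes were higher after AMPH (1.54%) and 133 lower (1.29%) at p under 0.05. The called gene was Piwil1, a germline Piwi gene, read on 2 AMPH arrays at 14.67 and 14.19 and blank on the other 2, against 2.78 to 4.94 after EIH (10.62 ± 0.61, adjusted p = 2.4e-05). Without either of the AMPH arrays that carried it, Piwil1 had too few values to be tested, so its loss there was fixed in advance. Hmox1 read 10.40, 9.37, 10.95 and 8.31 after AMPH, with the highest AMPH pool above the lowest EIH pool (-1.62 ± 0.61, adjusted p = 1.00).

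**Figure D5:**
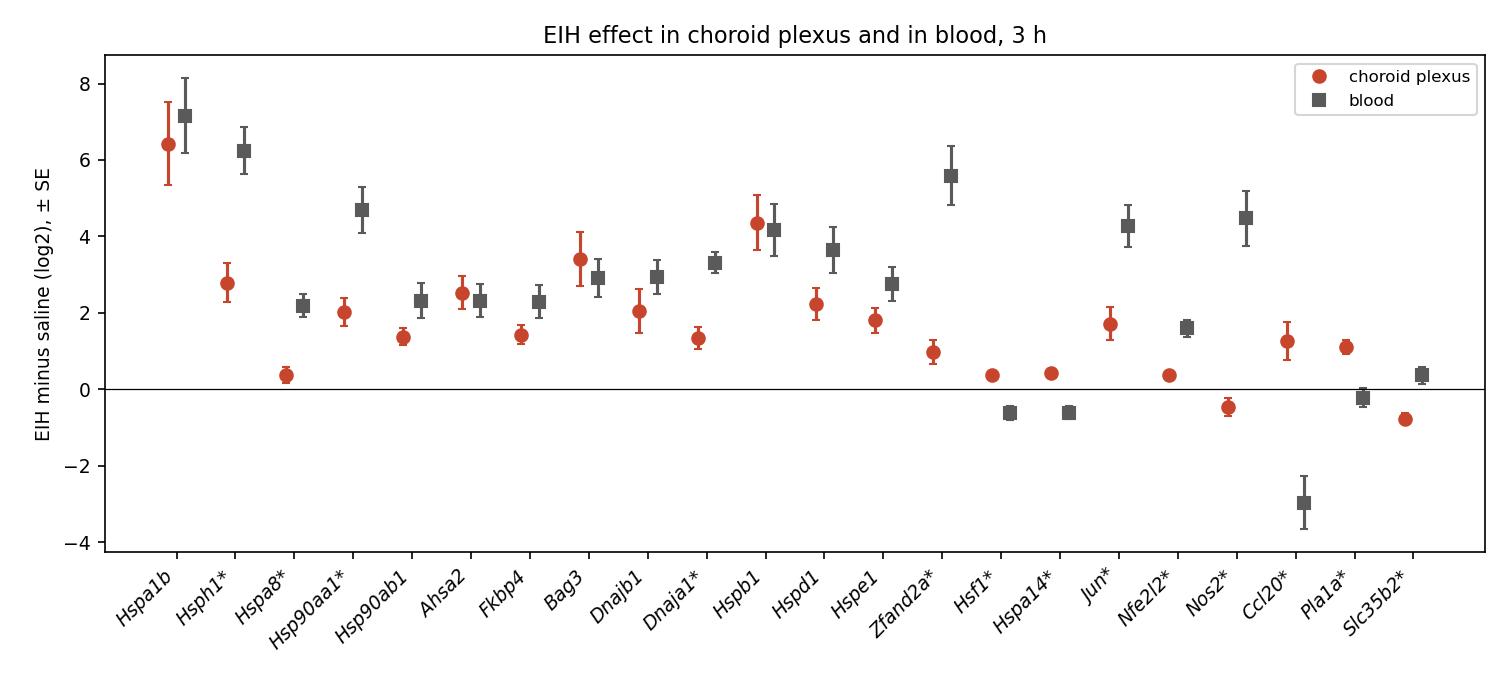
EIH minus saline difference on the log2 scale, ± standard error (vertical axis), in choroid plexus (circles) and blood (squares) at 3 h for 22 genes, with an asterisk where the difference between the tissues was called. Zfand2a stands at 0.98 in choroid plexus and 5.59 in blood, and Hsf1 at 0.36 and -0.62.

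Blood of EIH rats was set beside the choroid plexus. The titles, source names and protocol of these samples say blood, while a tissue tag also names the striatum, a brain region. In blood, 557 of 9893 genes rose (5.63%) and 693 fell (7.0%). The effect of EIH differed between choroid plexus and blood in 602 of 9813 genes (6.13%), 378 with the higher change in choroid plexus (3.85%) and 224 with the lower (2.28%). The 4 blood EIH rats also gave tissue to EIH pools 1, 2 and 4, and the 4 blood saline rats to saline pools 1 and 2, while the fit treats the arrays as independent. With arrays that share rats as a block (correlation 0.27) the count was 904, with 600 of the 602 among them. It was 34 without the pools and samples whose rat number is found under another treatment or time in either tissue, which removes EIH replicate 2 and saline replicates 3 and 4. Of 65 chaperone genes tested, 4 had a lower change in choroid plexus and 1 a higher. Hsph1 rose by 6.24 ± 0.61 in blood, and its change in choroid plexus was lower by 3.47 ± 0.82 (that is, -3.47; adjusted p = 0.00801). For Hsp90aa1 the difference between tissues was -2.67 ± 0.71 (adjusted p = 0.0187), for Dnaja1 -1.98 ± 0.41 (adjusted p = 0.00222) and for Hspa8 -1.80 ± 0.38 (adjusted p = 0.00269). Zfand2a read 9.67 to 13.28 in EIH blood against 5.57 to 7.20 in saline blood, and its difference between tissues was -4.61 ± 0.89 (adjusted p = 0.00137).

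Other chaperones had changes that could not be told apart between the tissues. Hspb1 stood at 4.35 in choroid plexus and 4.16 in blood (difference 0.18, adjusted p = 0.953), Bag3 at 3.40 and 2.91, and Ahsa2 at 2.53 and 2.32. Hsf1 (0.98 ± 0.21, adjusted p = 0.00368) and Hspa14 (1.05 ± 0.20, adjusted p = 0.00118) had the higher change in choroid plexus, where each stood slightly above saline, and were lower in EIH blood by called differences of -0.62 each (adjusted p = 0.0296 and 0.0178). The transcription factor genes Jun (-2.56 ± 0.72, adjusted p = 0.0258) and Nfe2l2 (-1.24 ± 0.25, adjusted p = 0.00179) had the lower change in choroid plexus. Nos2, the inducible nitric oxide synthase gene, rose in blood by 4.47 and stood at -0.46 ± 0.23 in choroid plexus (difference -4.93 ± 0.79, adjusted p = 0.000215).

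For a few genes the tissues went apart. Pla1a, called higher in choroid plexus, stood at -0.22 in blood (difference 1.32 ± 0.31, adjusted p = 0.00694). Slc35b2, the gene that fell, stood at 0.36 in blood (difference -1.13 ± 0.26, adjusted p = 0.00609). Ccl20 stood at 1.26 ± 0.49 in choroid plexus and fell by 2.97 in blood (difference 4.23 ± 0.85, adjusted p = 0.00257). In blood it read 5.33, 7.20 and 6.80 in saline and a low 3.21, 3.97 and 3.24 after EIH, with a blank in each group. Of the genes with the widest differences between tissues, Kprp (4.64), Ephb6 (3.71) and Cbx7 (3.37) fell in blood, and Cdc42ep2 (-4.66) rose there. All of them were uncalled in choroid plexus. Kprp rests on few values: 7.74 and 8.11 in saline blood, 6.02 and 2.88 in EIH blood, and blanks on the other arrays. In choroid plexus it had 3 saline and 2 EIH values, low at 2.80 to 4.59. Car4 had a difference of -4.55 (adjusted p = 0.0488), with neither tissue called alone.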

How the data were processed

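The deposited table holds linear intensity from Cy3 arrays, 14055 probes by 44 arrays, with some blank cells. The authors' background correction, normalization and rule for blanks are not given in these sources. RNA came from a Tri Reagent extraction and was labelled with Agilent's Quick Amp kit, per the labels' protocols. Values were taken as log2, and blanks stayed missing. The platform annotation gave 12926 probes a symbol and 1129 none. Symbols were updated through RefSeq, and the brightest probe stood for each of 10412 genes.

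Limma 3.58.1 (R 4.3.3) fitted a mean for every group of the 20 choroid plexus arrays (of all 44 for the comparison with blood) to genes with 2 or more values in the groups compared. The 4 EIH pools of 1 day in that fit are titled as controls but carry EIH as source and treatment. Pooling all groups makes the error of a gene depend on groups not compared. The steps were tested on simulated data. Figures used matplotlib 3.10.9 in Python 3.11.15. Replicate numbers follow accession order, and the labels pair no pools. The number of arrays limits the precision.

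The members, gene lists and named genes were chosen with earlier results of these data known. The text names the 12 largest rises, every fall, up to 4 members of each list by moderated statistic, heat shock genes, a fixed set of markers and the 4 widest differences of each other comparison. The other called genes and Hyou1, Manf, Creld2, Hsp90b1, Ddit3, Jun, Idi1, Msmo1, Folr1, Kcnj13, Dnajc3, Calr, Canx, Cct4, S100a8, S100a9 and Mpo were added after their values were seen. The alternatives were other normalizations, filters, spreads, probe rules, array sets and each array left out, with robust regression, the omission of saline replicates 3 and 4 together, the omission of rat numbers found under another treatment or time, and the block of arrays that share rats (limma's duplicateCorrelation) added after seeing the data.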

Additional observations from a re-analysis of the deposited data

Results flagged for a closer look

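Of 221 groups of 4 values of the named genes, 18 had an array whose gap to the nearest of the other 3, as a share of the range, was above Dixon's 95% critical value. That level is passed by chance in about 1 in 20 groups. Saline replicate 4 was that array in 9 of them: Hspa4l (9.29), Ubqln1 (11), Jun (7.98), Il1rn (5.73), Azi2 (11.08) and Rbm15b (6.44) were low there, and Ccl5 (9.91), Klrd1 (11.14) and Clcn2 (8.66) high. EIH replicate 3 was low for Hspa1b (11.01), Dnajb1 (10.36) and Dnajb9 (10.14). Hspa5 was low in replicate 1 of saline (9.16) and of EIH (8.93), and Slc12a2 was high in replicate 1 of saline (9.03) and of EIH (9.20). Cryab was high in saline replicate 3 (13.67) and Cdc42ep2 in EIH replicate 2 (8.03).

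By the test of the difference between tissues, 18 of the 113 named genes had an EIH change in choroid plexus that differed from that in blood. It was lower in choroid plexus for Nos2 (-4.93), Cdc42ep2 (-4.66), Zfand2a (-4.61), Car4 (-4.55), Hsph1 (-3.47), Hsp90aa1 (-2.67), Jun (-2.56), Dnaja1 (-1.98), Hspa8 (-1.80), Nfe2l2 (-1.24) and Slc35b2 (-1.13). It was higher for Kprp (4.64), Ccl20 (4.23), Ephb6 (3.71), Cbx7 (3.37), Pla1a (1.32), Hspa14 (1.05) and Hsf1 (0.98). Over all genes tested, the change differed in 602 of 9813 (6.13%). The naming rule took Nos2, Cdc42ep2, Zfand2a, Car4, Kprp, Ccl20, Ephb6 and Cbx7 as the widest called differences of this test. Their places here were thus fixed in advance, and the count of 18 is no result about the named genes. Among 1102 probes without a gene symbol, 3 were called for EIH against saline and 138 had an unadjusted p under 0.05. Of the 10261 genes tested, 0.341% were called, and 7.78% and 5.16% had such a p on the higher and the lower side.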

How the results depend on the processing

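The count of 35 genes called for EIH against saline was 76 without the 25% of genes with the lowest mean, 73 with an intensity trend and robust spread, 967 with array weights (486 of them lower), 68 with only the compared groups (26 lower, 17 shared with the 35), 171 without AMPH 1 day replicate 2 and 1410 with robust regression (641 lower). It was 0 without the pools that share a rat number with another pool, 0 without those whose number is found under another treatment or time in either tissue, and 0 without saline replicates 3 and 4 together. Leaving out each array in turn gave 0 to 89. Why these counts differ was not tested. The count stayed within 1.5 times under quantile normalization (33), a common median (35), the mean over probes (30), genes with every value (45) and the 12 arrays of 3 h (42).

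For AMPH against EIH, 1 call became 0 with genes measured on every compared array or only the compared groups, and 0 to 2 with each array left out. Piwil1 was not tested with genes measured on every compared array, nor without an AMPH array that carried it. The count of 602 for the difference between tissues was 1305 with array weights, 249 without samples whose rat number is in several pools, 34 without those whose number is found under another treatment or time in either tissue, 969 with only the 24 arrays of 3 h, and 404 to 633 with each array left out. Over 113 named genes and 22 settings, no gene called by default, or called in a setting, had the opposite sign there. The settings reuse most of the same arrays, so this does not test the calls. Among uncalled values, Il1rn was -0.38 with the mean over probes and Hspa5 -0.60 without saline replicate 1, though each was called higher in some setting. Of 42 list medians, 12 changed sign under some setting, none of them a chaperone list or those for ER stress or immediate early genes. EIH and saline pools hold different rats and no replicate numbers, so the labels give no pairing. Hspa5 was low and Slc12a2 high in replicate 1 of both groups. Whether arrays in the same position share a processing step was not tested. In the tissue comparison, the replicate block of arrays that share rats gave 904 calls. Values at the upper end of the scale limit Hspa1b, Hspb1, Hsp90ab1, Hspa5 and Ttr.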

Other observations

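Further gene groups had few calls. Of 22 genes of hypoxia and glucose uptake, P4ha1 was the 1 called, and the median was 0.05. Vegfa, the vascular growth factor gene, read 8.40 to 8.79 in saline and 9.13 to 9.38 after EIH (0.59 ± 0.28, adjusted p = 0.382), and Adm, the vasodilator adrenomedullin gene, stood at 1.38 ± 0.60 (adjusted p = 0.344), with EIH replicate 2 at 11.07. In the matrix list 1 of 30 genes was called (Serpinh1), the median was 0.28, and 7 of the 29 genes with 8 values had all EIH arrays above saline (24.1%, against 8.65% of all genes). Has1, a hyaluronan synthase gene, read 4.58, 5.15, 5.17 and 3.00 in saline and 7.0, 7.56, 5.72 and 7.24 after EIH (2.40 ± 0.54, adjusted p = 0.0670), with no overlap between groups. Of 17 clock genes, 0 were called. Cry1 stood at 0.86 ± 0.30 (adjusted p = 0.227), Per1 at 0.78 ± 0.30 (adjusted p = 0.267) and Dbp, an output gene, at -0.57 ± 0.23 (adjusted p = 0.288).

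Ttr and Enpp2 had identical values on each of the 8 arrays (15.97 to 16), the highest value of that array, and with them Igf2, Sostdc1 and Clu. No difference can be read from genes there.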
